A study of Mus musculus with 9 samples.

Results

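Endothelial cells line blood and lymphatic vessels, and 10 genes that mark them were followed in whole lacrimal glands of mice at 3 ages. The 10 were chosen by name, as rows of the deposited table of 54232 genes. Those of blood vessel endothelium were Pecam1, Cdh5, Kdr, Flt1, Tek, Tie1, Plvap and Emcn, 8 in all, and the 2 set against them, Flt4 and Prox1, mark lymphatic endothelium. The lacrimal gland makes the watery part of the tear film. RNA came from C57BL/6J females kept with free access to food under a 12-hour light cycle, with no other treatment named, with 3 libraries from the age of 2 months, 3 from 12 months and 3 from 24 months. The titles of the youngest group give 8 weeks. Whether the 3 libraries of a group are 3 mice is not stated in the labels, and p-values then reflect the spread between samples alone, part or all of which may be technical.

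The libraries held between 40516863 and 42573877 counts. Genes of the gland itself were high in all of them, with 6328982 to 7823424 counts of the odorant binding protein gene Obp1a and 9560 to 13672 of the water channel gene Aqp5; Pigr and Lcn11, also listed for the gland, did not pass in any comparison. Some libraries also carried other tissue. The 5 salivary gland genes listed, Smr3a, Bpifa2 and Amy1 among them, summed to 787 CPM in 2-month replicate 3, 374 CPM in 12-month replicate 2 and 249 CPM in 24-month replicate 2, against 0.573 to 65.4 CPM in the other 6. The 5 skeletal muscle genes, Acta1 and Ckm among them, summed to 23.6 and 50.5 CPM in 12-month replicates 1 and 3, against 0.226 to 0.96 CPM elsewhere.

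Vessels are kept by a pair of receptor systems. Vascular endothelial growth factors (VEGFs) bind the tyrosine kinases that Kdr (VEGF receptor 2), Flt1 (VEGF receptor 1) and Flt4 (VEGF receptor 3) encode: the first carries most of the growth signal in blood vessels, the second binds ligand tightly and limits the signal, and the third serves lymphatic vessels and sprouting tips. Angiopoietins bind the receptor encoded by Tek, which keeps mature vessels quiet, and Tie1 encodes its partner, for which no angiopoietin is a strong ligand. Pecam1 and Cdh5 encode adhesion molecules of endothelial junctions, CD31 and VE-cadherin. Plvap forms the diaphragms of fenestrated capillaries, which are common in glands, Emcn encodes the sialomucin endomucin of capillaries and veins, and Prox1 encodes the transcription factor that specifies lymphatic identity.

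In the GRCm38 assembly with GENCODE M21 all 10 are protein-coding, and counts are over whole genes. The VEGF receptor genes are Kdr (ENSMUSG00000062960, chromosome 5, 75932827 to 75978458), Flt1 (ENSMUSG00000029648, chromosome 5, 147561604 to 147726011) and Flt4 (ENSMUSG00000020357, chromosome 11, 49609263 to 49652739). The angiopoietin receptor genes Tek (ENSMUSG00000006386, 94739289 to 94874976) and Tie1 (ENSMUSG00000033191, 118471191 to 118490061) both lie on chromosome 4. Pecam1 (ENSMUSG00000020717) lies on chromosome 11, 106654217 to 106750628, and Cdh5 (ENSMUSG00000031871) and Plvap (ENSMUSG00000034845) on chromosome 8, 104101625 to 104144511 and 71497765 to 71511752. Emcn (ENSMUSG00000054690) lies on chromosome 3, 137341067 to 137432185, and Prox1 (ENSMUSG00000010175) on chromosome 1, 190118035 to 190170714. The strand setting of the counting is not given in the sources used here, so reads of antisense or overlapping genes could not be told from those of a member.

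The bases before the start site are shown for 4 members, from RefSeq in GRCm38.p6, read 5′ to 3′ on the strand of the gene. Tek and Emcn are shown because their 24-month and 12-month levels did not overlap, and Kdr and Flt1 as the main receptor pair, whose levels did overlap. Capitals mark AGGAAG or its reverse complement CTTCCT, a short form of the motif bound by ETS factors, the family of Ets1, Fli1 and Erg.
Tek, chr4:94739039-94739288, plus strand: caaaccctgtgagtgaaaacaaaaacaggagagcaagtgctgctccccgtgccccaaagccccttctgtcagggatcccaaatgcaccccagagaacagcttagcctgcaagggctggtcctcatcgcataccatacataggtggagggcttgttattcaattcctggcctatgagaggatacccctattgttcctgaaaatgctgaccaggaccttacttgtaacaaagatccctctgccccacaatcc
Emcn, chr3:137340828-137341066, plus strand: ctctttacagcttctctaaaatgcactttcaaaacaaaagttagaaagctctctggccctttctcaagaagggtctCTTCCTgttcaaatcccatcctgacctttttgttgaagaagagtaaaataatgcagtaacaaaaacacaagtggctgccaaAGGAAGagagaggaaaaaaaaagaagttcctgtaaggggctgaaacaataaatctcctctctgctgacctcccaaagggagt
Kdr, chr5:75978459-75978705, minus strand: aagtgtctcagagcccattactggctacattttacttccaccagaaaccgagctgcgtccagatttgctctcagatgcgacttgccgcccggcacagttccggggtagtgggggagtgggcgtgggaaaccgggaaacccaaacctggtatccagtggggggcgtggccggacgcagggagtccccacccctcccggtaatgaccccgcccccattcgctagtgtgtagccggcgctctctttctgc
Flt1, chr5:147726012-147726261, minus strand: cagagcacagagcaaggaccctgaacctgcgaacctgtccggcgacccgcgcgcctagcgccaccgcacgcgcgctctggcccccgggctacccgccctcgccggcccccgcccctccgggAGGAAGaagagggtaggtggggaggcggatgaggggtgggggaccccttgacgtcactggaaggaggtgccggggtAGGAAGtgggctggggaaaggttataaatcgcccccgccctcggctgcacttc
Emcn and Flt1 held 2 matches each within these bases, and Tek and Kdr held 0. A window of 250 bases before the start was available for 7 of the 10 members, and 3 of them (Flt1, Tie1 and Emcn) held at least 1 match on either strand, against 29.5% of 32851 such windows over all genes. No other motif was searched, and a match here is a description of the letters only.

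The 8 blood vessel genes were detected in every library, and the lymphatic genes had the lowest levels. Levels between genes are compared per length, as TMM-scaled CPM (the count relative to library size) for each kilobase of exon. Plvap was the highest, at 6.26 ± 0.856 CPM per kb (SD over 9 libraries), followed by Pecam1 at 1.39 ± 0.361. Emcn had 0.803 ± 0.163, Cdh5 0.698 ± 0.16, Flt1 0.652 ± 0.141 and Tie1 0.463 ± 0.0596 CPM per kb. Kdr had 0.335 ± 0.0695 and Tek 0.233 ± 0.0715, while the lymphatic genes came last, with Flt4 at 0.0723 ± 0.0286 and Prox1 at 0.00388 ± 0.00539 CPM per kb. The ranges over the 9 libraries did not meet between Plvap and Pecam1, Pecam1 and Emcn, Tek and Flt4, or Flt4 and Prox1. The other neighbours overlapped: Emcn exceeded Cdh5 in 6 of 9 libraries, Cdh5 exceeded Flt1 in 6, Flt1 exceeded Tie1 in 9, Tie1 exceeded Kdr in 8 and Kdr exceeded Tek in 8. Among the VEGF receptors, Flt1 was above Kdr per length in all 9 libraries, with Kdr over Flt1 between 0.295 and 0.728.

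No member passed the test with age. Of 14958 genes tested with edgeR's quasi-likelihood test, 9 were members, since Prox1 had too few counts to pass the filter. After Benjamini-Hochberg adjustment over all tested genes, 0 of 9 were called at 12 against 2 months, where 7.92% of all tested genes were called. At 24 against 2 months 0 of 9 were called beside a background of 17.4%, at 24 against 12 months 0 of 9 beside 4.39%, and over the 3 ages together 0 of 9 beside 17.0%. At an unadjusted p under 0.05 there were 2 members in the first comparison (Pecam1 and Emcn), 0 in the second and 2 in the third (Tek and Emcn), beside 23.1, 31.6 and 18.9% of all tested genes. DESeq2 also called 0 of 9 in each comparison. In whole-gland RNA, fewer endothelial cells and less RNA per cell cannot be told apart.

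**Figure D1:**
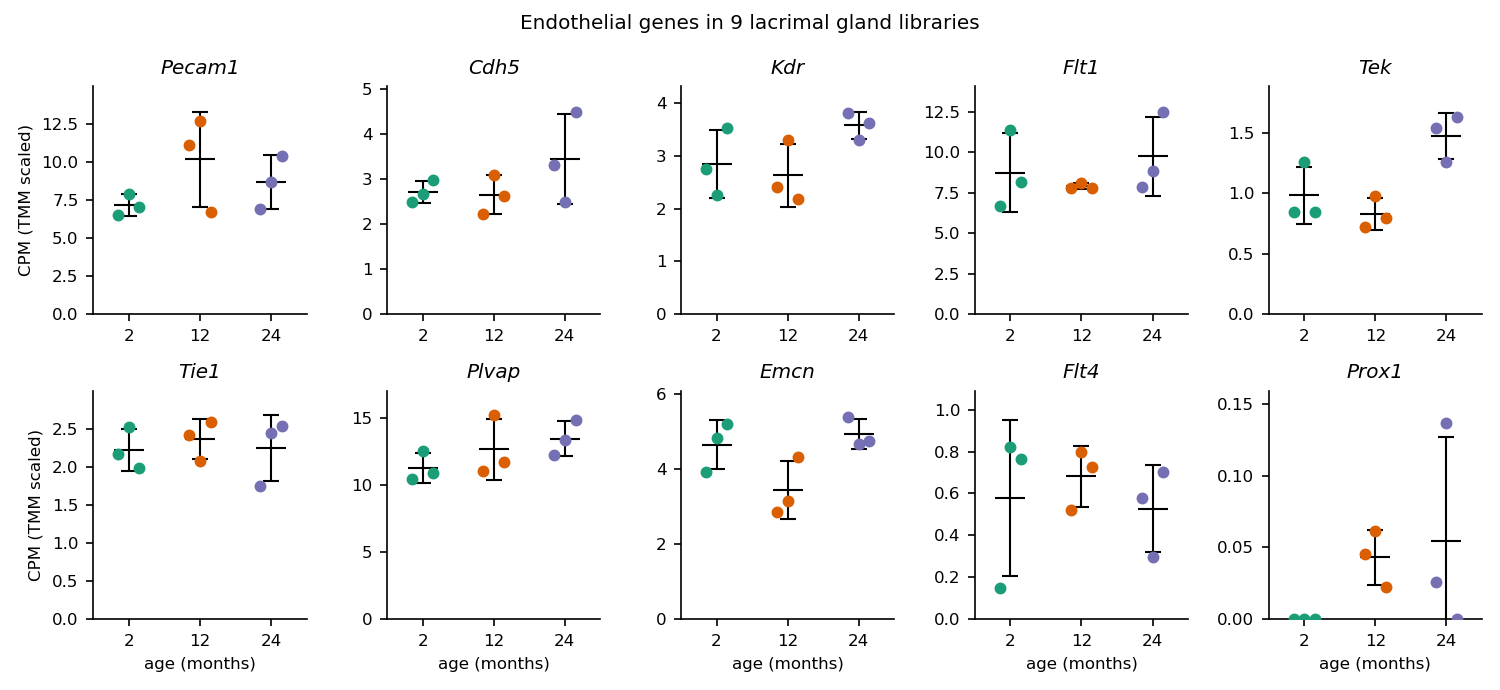
Level of the 10 members in each library (points, CPM scaled by TMM, linear axes from 0) at 2, 12 and 24 months; the line and bars are mean ± SD of 3 libraries. Tek and Emcn are higher in each 24-month library than in any 12-month library, and Prox1 is at 0 in the 2-month libraries.

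Of the VEGF receptors in blood vessels, Kdr was measured at 2.76, 2.26 and 3.53 CPM at 2 months, 2.42, 3.31 and 2.18 CPM at 12 months, and 3.82, 3.3 and 3.62 CPM at 24 months. All 3 ages overlapped, with the 24-month libraries toward the top. The fitted log2 difference was -0.11 (95% interval -0.61 to 0.39, adjusted p = 0.825) for 12 against 2 months, 0.33 (-0.17 to 0.82, adjusted p = 0.363) for 24 against 2 and 0.44 (-0.05 to 0.93, adjusted p = 0.327) for 24 against 12. Flt1, the decoy-like receptor, had 6.67, 11.4 and 8.17 CPM at 2 months, 7.79, 8.11 and 7.81 CPM at 12 months, and 7.85, 8.87 and 12.5 CPM at 24 months. A single library was high at 2 months and another at 24 months, and the ages overlapped. Its log2 differences were -0.15 (-0.59 to 0.30), 0.16 (-0.29 to 0.60) and 0.30 (-0.14 to 0.74) in the same order of comparisons. These intervals leave room for a change of Flt1 of up to 0.60 on the log2 scale by 24 against 2 months.

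Tek, the angiopoietin receptor, had the largest fitted difference of the members. It was at 0.847, 1.26 and 0.848 CPM at 2 months, 0.722, 0.981 and 0.795 CPM at 12 months, and 1.54, 1.26 and 1.63 CPM at 24 months. Each 24-month library lay above each 12-month library, and the 2-month libraries overlapped both ranges. At 24 months the mean was 1.48 ± 0.194 CPM, against 0.833 ± 0.133 CPM at 12 months (SD, n = 3 libraries each). The 24-month level was 1.77-fold the 12-month level (95% interval 1.11 to 2.82) in edgeR's quasi-likelihood fit, with an unadjusted p of 0.02 and an adjusted p of 0.163, which did not pass. For 24 against 2 months the log2 difference was 0.59 (-0.09 to 1.26, adjusted p = 0.217) and for 12 against 2 months -0.24 (-0.92 to 0.45, adjusted p = 0.713). Tie1, its partner, had 2.17, 2.52 and 1.98 CPM at 2 months, 2.42, 2.08 and 2.59 CPM at 12 months, and 1.75, 2.45 and 2.54 CPM at 24 months. The 3 ages covered the same span, and the log2 differences of Tie1 were 0.09 (-0.42 to 0.59), 0.02 (-0.49 to 0.52) and -0.07 (-0.57 to 0.43). Within a library, counts of Tek over counts of Tie1 came to 0.391, 0.5 and 0.429 in the 2-month libraries, 0.299, 0.471 and 0.307 in the 12-month and 0.881, 0.514 and 0.643 in the 24-month libraries. That ratio does not depend on the scaling of a library, and its 24-month values lay above all the others. It was picked after its values were seen and was not tested.

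Emcn was the other gene with separate 24-month and 12-month levels. It had 3.93, 4.81 and 5.2 CPM at 2 months, 2.84, 3.15 and 4.32 CPM at 12 months, and 5.39, 4.67 and 4.75 CPM at 24 months. The 12-month libraries were low, with 12-month replicate 3 inside the 2-month range. The 24-month level was 1.44-fold the 12-month level (95% interval 1.08 to 1.92), with an unadjusted p of 0.0179 and an adjusted p of 0.154 in edgeR's quasi-likelihood test. For 12 against 2 months the log2 difference of Emcn was -0.44 (-0.85 to -0.02, unadjusted p = 0.0426, adjusted p = 0.198), and for 24 against 2 months 0.09 (-0.33 to 0.50). Across all tested genes, 24.7% had CPM ranges that did not overlap between 24 and 12 months, beside 2 of the 9 members tested. Over the alternatives the adjusted p at 24 against 12 months ran from 0.0633 to 0.494 for Emcn and from 0.119 to 0.717 for Tek, so neither was called under any of those run.

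Plvap had 10.4, 12.5 and 10.9 CPM at 2 months, 11, 15.2 and 11.7 CPM at 12 months, and 12.2, 13.3 and 14.8 CPM at 24 months. It was the most precisely measured member, with the narrowest intervals. Its log2 differences were 0.16 (-0.14 to 0.47, adjusted p = 0.538) for 12 against 2 months, 0.25 (-0.05 to 0.56, adjusted p = 0.24) for 24 against 2 and 0.09 (-0.21 to 0.39, adjusted p = 0.789) for 24 against 12. A change of Plvap beyond 0.56 on the log2 scale in either direction lies outside all 3 intervals.

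Of the junction genes, Cdh5 had 2.49, 2.67 and 2.97 CPM at 2 months, 2.23, 3.09 and 2.63 CPM at 12 months, and 3.32, 2.5 and 4.49 CPM at 24 months. The 3 ages overlapped, and the highest value was that of 24-month replicate 3. The log2 differences of Cdh5 were -0.03 (-0.55 to 0.49), 0.35 (-0.18 to 0.87) and 0.37 (-0.14 to 0.89). Pecam1 had 6.52, 7.92 and 7.01 CPM at 2 months, 11.1, 12.7 and 6.7 CPM at 12 months, and 6.91, 8.71 and 10.4 CPM at 24 months. At 12 months 2 libraries stood above all 2-month libraries and the third lay within their range. The log2 difference of Pecam1 was 0.51 (0.04 to 0.98, unadjusted p = 0.0372, adjusted p = 0.183) for 12 against 2 months, 0.28 (-0.19 to 0.76, adjusted p = 0.417) for 24 against 2 and -0.23 (-0.70 to 0.24, adjusted p = 0.628) for 24 against 12. Without 12-month replicate 3 the difference at 12 against 2 months was 0.73 with an adjusted p of 0.026, and with no filter on low counts the adjusted p was 0.0244. Over all alternatives run, that adjusted p of Pecam1 ranged from 0.0244 to 0.761.

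**Figure D2:**
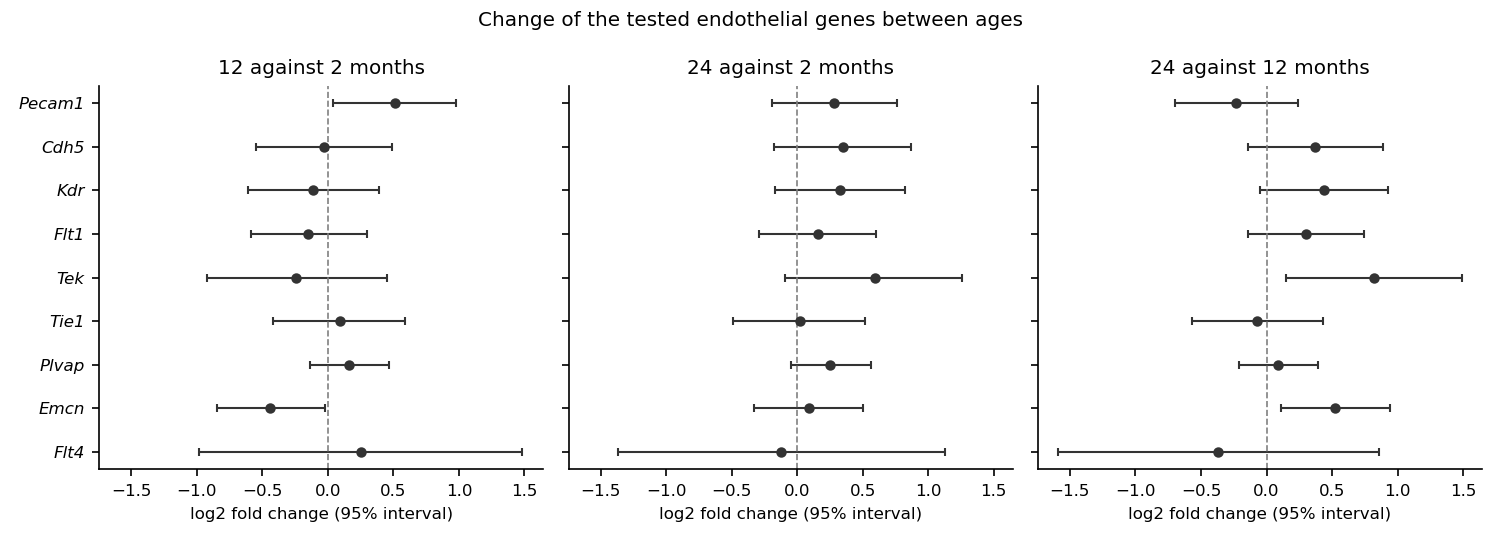
Fitted log2 fold change (points) with 95% intervals (bars) of the 9 tested members for 12 against 2, 24 against 2 and 24 against 12 months, on a shared axis; the dashed line is no change. Pecam1 and Emcn at 12 against 2 months, and Tek and Emcn at 24 against 12 months, have intervals that leave out 0 before adjustment, and Flt4 has the widest intervals.

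Pecam1 is also made by leukocytes and platelets, and genes of both are given beside it. Ptprc, which encodes the pan-leukocyte protein CD45, had 659, 940 and 198 counts at 12 months, against 132, 29 and 69 counts at 2 months. The pair of 12-month libraries with the most Ptprc was the pair with the most Pecam1. The summed level of the 6 leukocyte genes was 16.4 to 38.3 CPM at 2 months, 128 to 213 CPM at 12 months and 132 to 190 CPM at 24 months, with none of the 6 at 0 in any library. Where that sum was 128 CPM (12-month replicate 3) and 132 CPM (24-month replicate 1), Pecam1 lay at 6.7 and 6.91 CPM, within its 2-month range. The libraries of each older group had the same order in the sum and in Pecam1, and those of 2 months the reverse. The leukocyte genes were called higher for 5 of 6 (Ptprc, Cd79a, Cd3e, Lyz2 and Cd68) at 12 against 2 months and 4 of 6 (all but Ptprc of these) at 24 against 2, and 1 of 6 (Cd79a) was lower at 24 against 12. Beside these, 5.4 and 9.81% of all tested genes were higher and 1.6% were lower. Without the libraries with salivary gland transcripts the calls of Ptprc (adjusted p = 0.192) and Cd3e (0.105) at 12 against 2 months, Cd3e (0.0616) at 24 against 2 and Cd79a (0.399) at 24 against 12 were lost, while those of Cd79a, Lyz2 and Cd68 against 2 months were kept. In limma voom Cd79a lost both calls against 2 months (0.194 at 12 and 0.285 at 24 months), and Cd3e that at 24 months (0.0831). The call of Cd79a at 24 against 12 months was also lost in DESeq2 (0.058) and limma voom (0.142). It was lost too without any single library other than 12-month replicate 3 (0.0639 to 0.178). The part of leukocytes in the level of Pecam1 was not tested. Of 6 platelet genes, Gp1bb and Gp6 were at 0 in all libraries, Gp9 had counts in 1 library only and Ppbp had at most 10. Pf4 had 24 to 100 counts, with log2 differences of 0.20, 0.67 and 0.46 that did not pass. Itga2b, at 569 to 1006 counts, was lower at 12 against 2 months (log2 difference -0.70, adjusted p = 0.0147) and at 24 against 2 (-0.65, adjusted p = 0.0124). Both calls of Itga2b were lost with library totals alone (0.125 and 0.152) and without the salivary libraries (0.128 and 0.0698). The platelet list, most of whose counts were of Itga2b, summed to 22.2 to 30.5 CPM at 2 months, 13.6 to 19.6 CPM at 12 months and 16.2 to 17.8 CPM at 24 months. The sum therefore follows that gene and not the list as a whole, and the part of platelets in the level of Pecam1 was not tested.

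**Figure D3:**
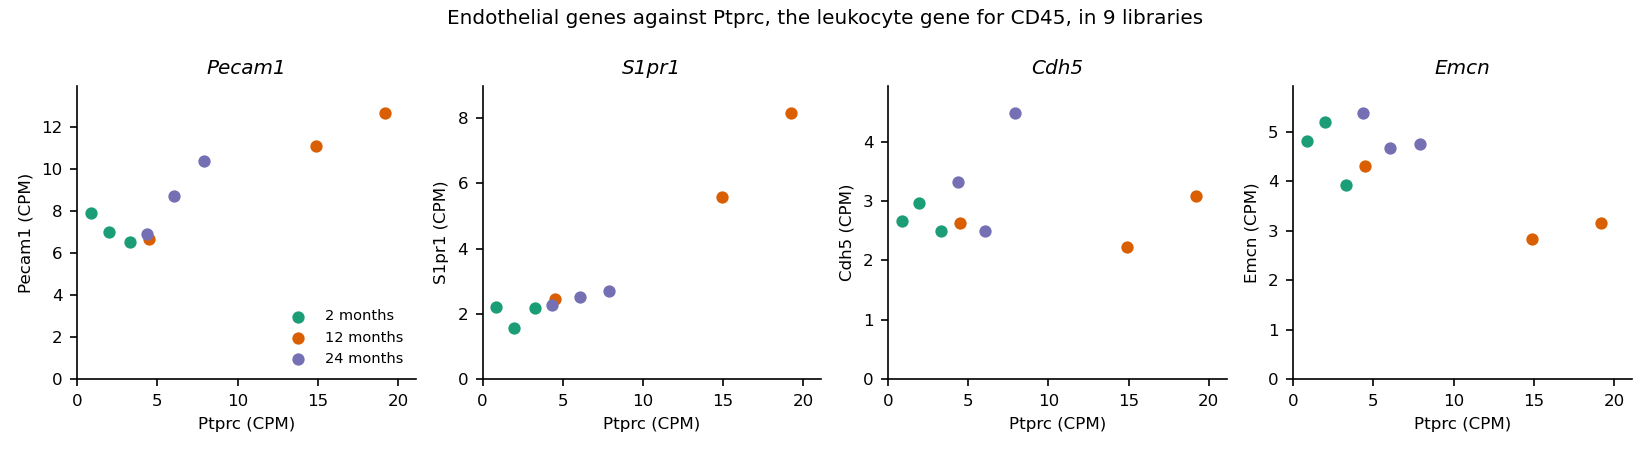
Level of Pecam1, S1pr1, Cdh5 and Emcn (vertical axes, CPM) against Ptprc (horizontal axes, CPM) in the 9 libraries, coloured by age. The 2 libraries with the most Ptprc, 12-month replicates 1 and 2, have the most Pecam1 and S1pr1, while Emcn is lowest there; Cdh5 is lowest of all in 12-month replicate 1 and within the range of the other libraries in 12-month replicate 2.

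The blood vessel genes did not move as one block. Over the 8 tested, the median log2 difference was -0.07 at 12 against 2 months, 0.27 at 24 against 2 and 0.34 at 24 against 12, beside medians of 0.01, 0.01 and -0.02 over all tested genes. With Flt4 included the medians were -0.03, 0.25 and 0.30, and without 24-month replicate 3 they were 0.12 at 24 against 2 months and 0.09 at 24 against 12. Without the muscle libraries the last was 0.13, and at 12 against 2 months the median ran from -0.16 to 0.29 over the alternatives. Of the 9 tested members, 4 were fitted above 0 and 5 below at 12 against 2 months, 8 above and 1 below at 24 against 2, and 6 above and 3 below at 24 against 12. Without 24-month replicate 3 or without 2-month replicate 1, 6 were above and 3 below at 24 against 2. Scaled by library totals alone, the median over all genes shifted to 0.31 in both comparisons with 2 months, and the members fitted above 0 became 8 of 9 at 12 against 2 months and 9 of 9 at 24 against 2. Among the 28 pairs of blood vessel genes, the correlation of log2 CPM over the 9 libraries had a median of 0.36, with 10 pairs above 0.5 and 6 below 0. The closest pair was Cdh5 and Tek at 0.71, and the most opposed were Pecam1 and Emcn at -0.65 and Kdr and Tie1 at -0.63. These are descriptions over 9 libraries that share scaling and depth. The mean standardised level of the 8 genes was 1.24 in 24-month replicate 3, the highest of all, and between -0.76 and 0.28 in the other 8 libraries.

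The lymphatic pair was near the limit of detection. Flt4 had 6, 28 and 27 counts in the 2-month libraries, 23, 39 and 32 in the 12-month and 22, 13 and 35 in the 24-month libraries, with 2-month replicate 1 the lowest. The log2 differences of Flt4 were 0.25 (-0.98 to 1.48, adjusted p = 0.846) for 12 against 2 months, -0.12 (-1.37 to 1.13, adjusted p = 0.914) for 24 against 2 and -0.37 (-1.59 to 0.86, adjusted p = 0.782) for 24 against 12. Intervals this wide leave a change of about 1 log2 unit undetectable at this depth. Prox1 had 0, 0 and 0 counts in the 2-month libraries, 2, 3 and 1 in the 12-month and 1, 6 and 0 in the 24-month libraries. Summed over an age this is 0 counts at 2 months (95% Poisson interval up to 3.69), 6 at 12 months (2.2 to 13.1) and 7 at 24 months (2.81 to 14.4). Of the 7 counts at 24 months 6 came from replicate 2, a library with salivary gland transcripts, and the other 2 libraries held 1 count. In CPM the Poisson intervals of the ages overlapped, reaching up to 0.0337 at 2 months, 0.016 to 0.0951 at 12 months and 0.0214 to 0.11 at 24 months. It was not tested at the filter used; with no filter its adjusted p at 24 against 2 months was 0.244, and with a minimum count of 1 it was 0.178. These intervals cover counting error only.

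As a share of all VEGF receptor counts (Kdr, Flt1 and Flt4), Flt4 took 1.56, 5.66 and 6.12% in the 2-month libraries, 4.84, 6.52 and 6.78% in the 12-month and 4.7, 2.39 and 4.19% in the 24-month libraries. The first of these has a 95% Wilson interval of 0.716 to 3.36%, on 385 counts. Age means were 4.45 ± 2.51% at 2 months, 6.05 ± 1.05% at 12 months and 3.76 ± 1.21% at 24 months (SD, n = 3 libraries each). The 24-month libraries all lay below the 12-month libraries, 4.7% against 4.84% at the nearest, and the 2-month libraries spanned most of the range. Those nearest values rest on 22 and 23 counts of Flt4, with Wilson intervals of 3.12 to 7.01% and 3.25 to 7.16%. The share was not tested. The mean log2 CPM of the 8 blood vessel genes exceeded that of Flt4 and Prox1 by 5.20, 4.40 and 4.35 in the 2-month libraries, 3.98, 3.83 and 3.99 in the 12-month and 4.35, 4.12 and 4.82 in the 24-month libraries, with a prior count of 2. The means were 4.65 ± 0.48, 3.93 ± 0.09 and 4.43 ± 0.36 at the 3 ages. With this prior count the difference was smallest in the 12-month libraries, and it rests on Prox1 counts at or near 0, for which the prior count sets the value. With a prior count of 0.5, 24-month replicate 2 (4.33) lay below 12-month replicates 1 (4.36) and 3 (4.52). With summed CPM, 2-month replicates 2 and 3 (5.79 and 5.73) lay below 12-month replicates 1 and 2 (6.17 and 5.83).

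Other lymphatic genes gave no clearer view. Lyve1, the hyaluronan receptor of lymphatic vessels, had 4, 1 and 6 counts in the 2-month libraries, 0, 3 and 3 in the 12-month and 11, 5 and 0 in the 24-month libraries. Mmrn1 had at most 1 count in a library, and the lymphatic chemokine gene Ccl21a had 0 counts except for 2 in 12-month replicate 2. Tbx1 reached 2 counts and Clca3a1 reached 11, in 24-month replicate 2, the library that also had the 6 counts of Prox1. That library carried salivary gland transcripts (249 CPM), as did 12-month replicate 2 (374 CPM), which had 3 counts of Prox1. The library with the most of them, 2-month replicate 3 (787 CPM), had 0 counts of Prox1. The part of other tissue in these counts was not tested. The remaining genes of the list, Pdpn, Itga9, Reln and Foxc2, were well above these, at 24 to 105, 54 to 119, 433 to 730 and 817 to 1186 counts, and are made by other cells as well. Of the 10 gene IDs in that list 4 were tested, and 0 passed in any comparison, with 7.92, 17.4 and 4.39% of all genes called.

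**Figure D4:**
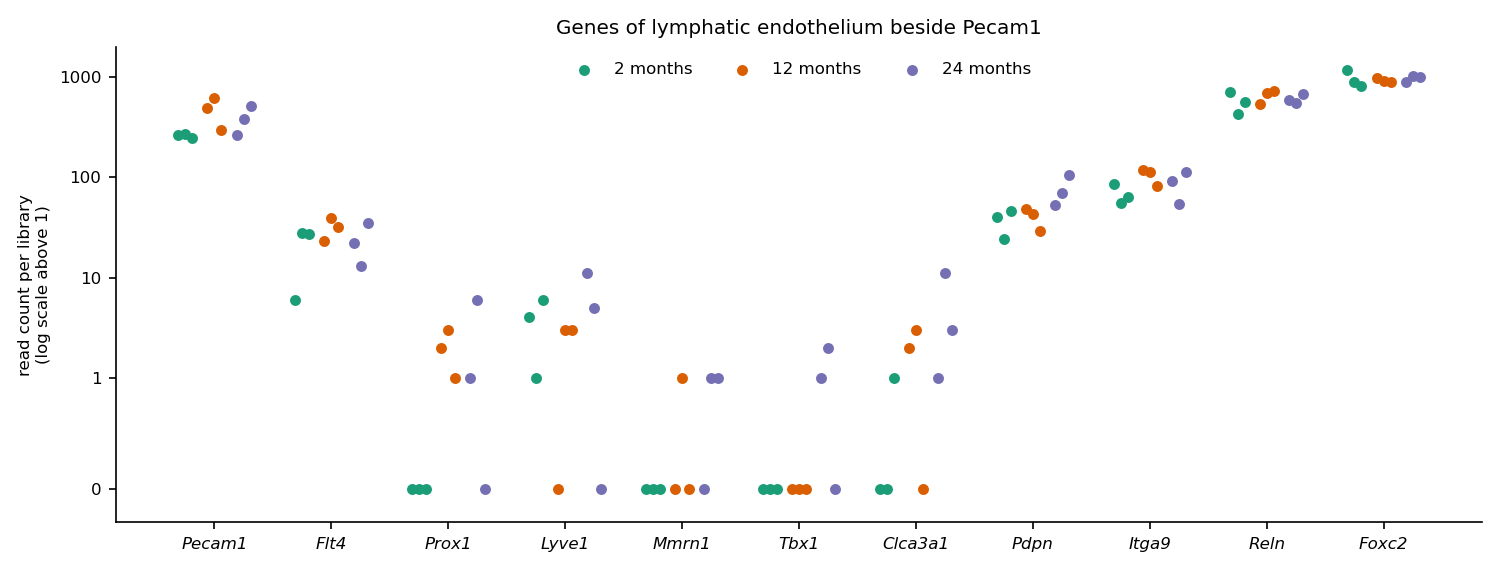
Read counts per library (points, log axis above 1 and linear below) of Flt4, Prox1 and other lymphatic genes beside Pecam1, coloured by age. Prox1, Lyve1, Mmrn1, Tbx1 and Clca3a1 stay at or below 11 counts in all 9 libraries, while Foxc2 and Reln exceed Pecam1 in each of them.

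Of 8 genes for ligands of these receptors 7 were tested, and 2 passed in at least 1 comparison, Angpt1 and Vegfb. Of all tested genes 7.92% passed at 12 against 2 months, 17.4% at 24 against 2 and 4.39% at 24 against 12. Angpt1, which encodes the activating ligand of the Tek receptor, was lower at 12 against 2 months and higher at 24 against 12. Angpt1 had 171, 45 and 140 counts in the 2-month libraries, 46, 43 and 31 in the 12-month and 137, 110 and 356 in the 24-month libraries. In CPM every 12-month library lay below all the others, 2-month replicate 2 being the nearest. The log2 difference was 2.34 (1.36 to 3.32, adjusted p = 0.0147) for 24 against 12 months and -1.86 (-2.86 to -0.87, adjusted p = 0.0289) for 12 against 2. Vegfb, which encodes a ligand of the Flt1 receptor, had 554, 742 and 600 counts in the 2-month libraries, 655, 818 and 887 in the 12-month and 380, 427 and 553 in the 24-month libraries. In CPM the 24-month libraries were the lowest, with a log2 difference of -0.77 (-1.12 to -0.41, adjusted p = 0.00877) against 2 months and -0.74 (-1.09 to -0.39, adjusted p = 0.023) against 12.

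The other ligands did not pass. Vegfa, the main ligand of the Kdr receptor, had log2 differences of -0.23 (-0.49 to 0.04), -0.22 (-0.48 to 0.05) and 0.01 (-0.25 to 0.28). Vegfc, which encodes the ligand of the Flt4 receptor, had 45, 41 and 31 counts in the 2-month libraries, 33, 22 and 22 in the 12-month and 18, 20 and 27 in the 24-month libraries. Its log2 difference at 24 against 2 months was -1.11 (-1.91 to -0.31), with an adjusted p of 0.0558. Vegfd, the other ligand of that receptor, had 5 to 31 counts and a log2 difference of 1.09 (-0.02 to 2.20, adjusted p = 0.162) in the same comparison. Angpt2, the context-dependent antagonist of Angpt1, had log2 differences of 0.16, 0.61 and 0.46, none of which passed. Within a library, Angpt1 counts over Angpt2 counts were 3.98, 1.25 and 2.26 in the 2-month libraries, 1.44, 0.448 and 0.431 in the 12-month and 2.98, 1.39 and 2.47 in the 24-month libraries. The lowest 2 ratios were both at 12 months, and the ages overlapped. Pgf had log2 differences of 0.00, 0.15 and 0.15, and Angpt4, with at most 1 count, was not tested.

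The ligand calls rest on few libraries. The call of Angpt1 at 12 against 2 months was lost without 2-month replicate 1 (adjusted p = 0.0835) or 3 (0.0972) and without 12-month replicate 1 (0.0685), 2 (0.108) or 3 (0.0664), as well as with library totals alone (0.0626) and in limma voom (0.0758). At 24 against 12 months it was lost without 12-month replicate 1 (0.0501) or 2 (0.0535) and in limma voom (0.0676). The Vegfb call at 24 against 12 months was lost without 12-month replicate 2 (0.0661) or 3 (0.0892) and without 24-month replicate 1 (0.0584) or 2 (0.0837), and its call at 24 against 2 months with library totals alone (0.0919). Over all alternatives the adjusted p ran from 2.44e-09 to 0.25 for Angpt1 at 12 against 2 months and from 1.36e-14 to 0.257 at 24 against 12. For Vegfb it ran from 5.51e-07 to 0.115 at 24 against 2 months and from 2.41e-06 to 0.255 at 24 against 12.

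Co-receptors and regulators were 10 genes, all tested, of which 2 were higher at 12 against 2 months, 1 at 24 against 2 and 0 at 24 against 12, with none lower. Of all tested genes 5.4, 9.81 and 2.79% were higher in these comparisons. Nrp2, which encodes a co-receptor for VEGF-C in lymphatic and venous endothelium, had 34, 50 and 44 counts in the 2-month libraries, 86, 133 and 117 in the 12-month and 127, 126 and 199 in the 24-month libraries. Both older groups lay above the 2-month libraries. The log2 difference of Nrp2 was 1.53 (0.95 to 2.10, adjusted p = 0.00359) for 24 against 2 months and 1.04 (0.46 to 1.62, adjusted p = 0.0333) for 12 against 2. The first was kept without any single library; the second was lost without any 2-month library (0.0539 to 0.0872) and without 12-month replicate 2 (0.136) or 3 (0.0718), and with only the 6 libraries compared (0.0574). Nrp1, the co-receptor of Kdr, had a log2 difference of 0.63 (0.05 to 1.20, adjusted p = 0.128) at 24 against 2 months. S1pr1, a sphingosine phosphate receptor of endothelium and lymphocytes, was higher at 12 against 2 months by 1.44 (0.70 to 2.19, adjusted p = 0.0255), with 247, 400 and 108 counts at 12 months, against 87, 75 and 56 at 2 months. Its order within the 12-month group was that of Ptprc, and its call was lost without any of the 2-month libraries (0.0561 to 0.1) and without 12-month replicate 1 (0.07) or 2 (0.141). Ptprb, the phosphatase that restrains the Tek receptor, had log2 differences of -0.25 (-0.73 to 0.23), -0.38 (-0.87 to 0.10) and -0.13 (-0.61 to 0.35). Notch1, a receptor of vessel patterning, had log2 differences of 0.52, -0.28 and -0.80, and Eng, a co-receptor of the transforming growth factor family, had -0.14, 0.32 and 0.46, none of which passed.

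Among 18 other surface and junction genes of endothelium, all tested, 0 were higher and 2 lower at 12 against 2 months, 2 higher and 0 lower at 24 against 2, and 2 higher and 0 lower at 24 against 12. Vwf, which encodes the clotting factor stored by endothelium, had 352, 457 and 367 counts in the 2-month libraries, 292, 309 and 243 in the 12-month and 326, 550 and 495 in the 24-month libraries. In CPM the 12-month libraries were below all others, with log2 differences of -0.82 (-1.21 to -0.43, adjusted p = 0.0174) for 12 against 2 months and 0.76 (0.37 to 1.14, adjusted p = 0.0351) for 24 against 12. Jam2, a junction adhesion molecule, was lower at 12 against 2 months by -1.03 (-1.60 to -0.47, adjusted p = 0.0315), and its difference at 24 against 12 months, 0.97, had an adjusted p of 0.0557. Cd34, a sialomucin shared with fibroblast-like cells and blood progenitors, was higher at 24 months, with log2 differences of 0.68 (0.29 to 1.07, adjusted p = 0.0231) against 2 months and 0.85 (0.47 to 1.24, adjusted p = 0.019) against 12. It had 196 to 209 counts at 2 months, 205 to 248 at 12 months and 300 to 553 at 24 months. Cd93, a lectin-like receptor of endothelium and myeloid cells, rose by 1.20 (0.69 to 1.71, adjusted p = 0.00639) at 24 against 2 months, with 195, 339 and 378 counts at 24 months, against 148, 112 and 69 at 2 months. Of all tested genes, 5.4% were higher and 2.52% lower at 12 against 2 months. The shares were 9.81% and 7.55% at 24 against 2, and 2.79% and 1.6% at 24 against 12.

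These calls too depended on single libraries, except that of Cd93, which was kept without each library in turn. Vwf lost its call at 12 against 2 months without replicate 2 of the 2-month (0.083) or the 12-month group (0.0654), and with library totals alone (0.12). At 24 against 12 months Vwf lost its call without replicate 3 of the 2-month group (0.0549), any 12-month library (0.0774 to 0.0934), or 24-month replicate 2 (0.124) or 3 (0.0693). Jam2 lost its call without replicate 1 (0.0636) or 2 (0.137) of the 2-month group, or 1 (0.107) or 2 (0.123) of the 12-month group, and with library totals alone (0.136). Cd34 at 24 against 2 months was lost without any 2-month library (0.0518 to 0.0693) or 24-month replicate 3 (0.0995), and at 24 against 12 without 12-month replicate 1 (0.0773) or 2 (0.0744), or 24-month replicate 3 (0.0689). Over all alternatives the adjusted p at 24 against 12 months ran from 5.22e-05 to 0.374 for Vwf and from 6.24e-05 to 0.196 for Cd34.

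Capillary, arterial and venous genes were listed apart. Their calls stand beside 7.92% of all tested genes at 12 against 2 months, 17.4% at 24 against 2 and 4.39% at 24 against 12. Of 7 capillary genes, all tested, Apln alone was called; it encodes apelin, a peptide of sprouting and capillary endothelium that fat cells also make. Apln had 42, 35 and 19 counts in the 2-month libraries, 6, 16 and 11 in the 12-month and 43, 54 and 105 in the 24-month libraries. All 12-month libraries lay below the others. The log2 difference was 2.63 (1.65 to 3.62, adjusted p = 0.00752) for 24 against 12 months, kept without any single library, and -1.86 (-2.86 to -0.85, adjusted p = 0.0296) for 12 against 2. That earlier call was lost without 2-month replicate 1 (0.0716) or 2 (0.102), without any 12-month library (0.0543 to 0.0988), with library totals alone (0.0691) and in limma voom (0.0928). Car4, a carbonic anhydrase of the capillary surface, had log2 differences of -1.32, 0.24 and 1.56, Aplnr, the receptor of apelin, -0.44, 0.39 and 0.83, and Rgcc -0.29, -0.33 and -0.03, none of which passed. Adipocyte genes, the 5 listed (Plin1, Cidec, Adipoq, Retn and Lep), summed to 0.0283 to 0.0996 CPM at 2 months, 0.745 to 6.4 CPM at 12 months and 1.19 to 6.74 CPM at 24 months, all 5 being called higher in both older groups against 2 months. Without the salivary libraries Lep was not tested and the other 4 lost both calls (adjusted p from 0.128 to 0.237 at 12 against 2 months and 0.0995 to 0.16 at 24 against 2). The part of adipocytes in the level of Apln was not tested.

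Of 6 arterial genes, all tested, Unc5b was higher at 12 against 2 months (log2 difference 1.12, adjusted p = 0.0498) and at 24 against 2 (1.29, adjusted p = 0.0166). Unc5b encodes a netrin receptor; without a single library other than 2-month replicate 1, its 12-month call was lost (0.0619 to 0.164), as it was with a minimum count of 1 (0.0702), no filter (0.0649) or only the 6 libraries compared (0.0866), and its call at 24 against 2 months needed 2-month replicates 2 (0.0652 without it) and 3 (0.0627) and 24-month replicate 3 (0.0536). Bmx, a kinase of arterial endothelium and myeloid cells, was higher at 24 against 2 months (1.97, adjusted p = 0.0142), but not without 24-month replicate 3 (0.0825). Gja5, a gap junction gene, had log2 differences of 0.70, 0.30 and -0.40 and Hey1, a target of Notch signalling, 0.02, 0.34 and 0.32, none of which passed. Of 7 genes of venous and activated endothelium 6 were tested. Vcam1, the adhesion molecule that captures lymphocytes, was higher in both older groups, by 2.11 (1.49 to 2.72, adjusted p = 0.000855) at 24 against 2 months and 1.66 (1.05 to 2.28, adjusted p = 0.00479) at 12 against 2. Each call of Vcam1 was kept without any single library. Ackr1, a chemokine-binding receptor of venules, had 25, 15 and 25 counts at 24 months, against 2, 5 and 5 at 2 months (2.14, adjusted p = 0.045), and its call was lost when any library but 12-month replicate 3 was left out (0.0538 to 0.124), with a minimum count of 1 (0.0538) and in limma voom (0.105). Icam1, another adhesion molecule for leukocytes, had log2 differences of 0.72, 1.21 (adjusted p = 0.0524 at 24 against 2 months) and 0.49. Glycam1, a gene of high endothelial venules, the vessels by which lymphocytes enter lymph nodes, had 2, 0 and 6 counts in the 2-month libraries, 675, 727 and 74 in the 12-month and 70, 248 and 442 in the 24-month libraries. It was called higher at 12 against 2 months (adjusted p = 0.00266; 0.0575 without the salivary libraries and 0.223 in limma voom) and at 24 against 2 (0.0037; 0.246 in limma voom). Enpp2, which encodes autotaxin, a lysophospholipase of these venules and other cells, was higher at 24 against 2 months (log2 difference 1.46, adjusted p = 0.00487), and Fut7 did not pass. Nr2f2 and Ephb4, which mark venous identity, did not pass in any comparison.

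Several endothelial transcription factors were higher at 12 against 2 months. Of 10 genes 7 were tested, Erg, Sox7 and Tal1 having too few counts, and 4 were higher at 12 against 2 months, with 0 called in the other comparisons. Of all tested genes 5.4% were higher at 12 against 2 months, and 17.4% were called at 24 against 2 and 4.39% at 24 against 12. Ets1 had 566, 1001 and 204 counts at 12 months, against 95, 75 and 91 at 2 months (log2 difference 2.41, 1.53 to 3.28, adjusted p = 0.00492). Fli1 had 146, 220 and 54 counts at 12 months, against 30, 33 and 31 at 2 months (1.80, adjusted p = 0.018). Klf2, a gene induced by blood flow, had 488, 597 and 180 counts at 12 months, against 114, 123 and 120 at 2 months (1.47, adjusted p = 0.0162). Mef2c had 338, 569 and 200 counts at 12 months, against 112, 83 and 113 at 2 months (2.83-fold, adjusted p = 0.0107). All 4 are also made by lymphocytes, and their order within the 12-month group was that of Ptprc, with 12-month replicate 2 the highest and replicate 3 the lowest. The part of leukocytes in these differences was not tested. Sox17 and Sox18, which in adult tissue are made mainly by endothelium, had 29 to 56 and 59 to 106 counts and did not pass in any comparison. The call of Ets1 was kept without any single library. Mef2c lost its call without replicate 2 of either group (2 months 0.0634, 12 months 0.0511), and Fli1 and Klf2 lost theirs without any 2-month library (0.0545 to 0.0667) and without 12-month replicate 1 (0.0576 and 0.0616) or 2 (0.0989 and 0.0846).

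**Figure D5:**
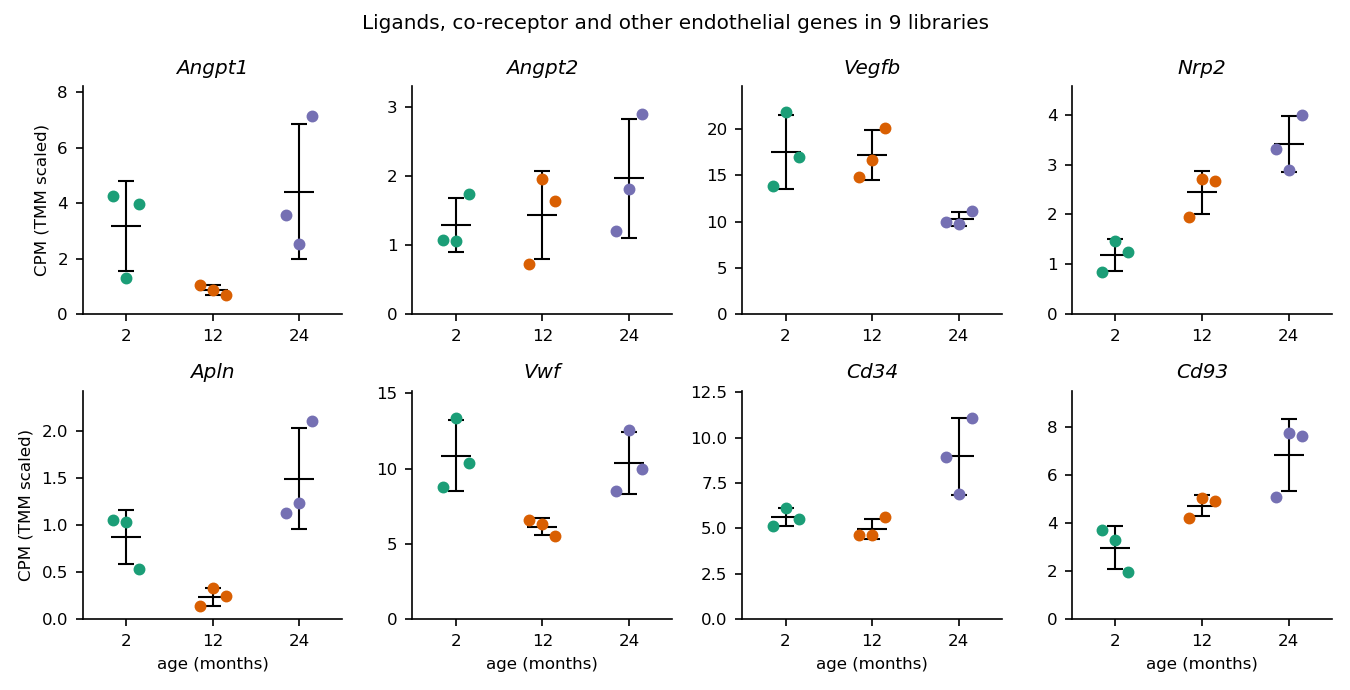
Level of the ligand genes Angpt1, Angpt2 and Vegfb, the co-receptor Nrp2, and the endothelial genes Apln, Vwf, Cd34 and Cd93 in each library (points, CPM scaled by TMM) at 2, 12 and 24 months; the line and bars are mean ± SD of 3 libraries. Apln and Vwf are lowest in the 12-month libraries, Vegfb is lowest at 24 months, and Nrp2 is above the 2-month level in both older groups.

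Taking the 6 lists of co-receptors, surface genes, transcription factors, capillary, arterial and venous genes together, 54 of 58 genes were tested. At 12 against 2 months 14.8% of the 54 were higher and 5.56% lower, beside 5.4% and 2.52% of all tested genes. At 24 against 2 months 13% were higher and 0% lower, beside 9.81% and 7.55%, and at 24 against 12 months 5.56% were higher and 0% lower, beside 2.79% and 1.6%. The lists were chosen with results of these data known, and no test was made of them. Pericytes, the cells that wrap capillaries, gave 0 calls among 8 tested genes of 9 in every comparison, and their genes summed to 17 to 20.1 CPM at 2 months, 16 to 20.6 CPM at 12 months and 20.1 to 29.1 CPM at 24 months. The log2 differences at 24 against 12 months were 0.60 for Pdgfrb, 0.51 for Rgs5, 0.25 for Kcnj8 and 0.89 for Ndufa4l2. For Abcc9, Mcam and Notch3 they were 0.26, 0.19 and 0.16, and Cspg4 was below 0 at -0.28. Adjusted p over these genes in edgeR's test ran from 0.118 to 0.848. Red blood cell genes, a measure of retained blood, summed to 46.4 to 58.8 CPM at 2 months, 52.3 to 93.2 CPM at 12 months and 75.4 to 190 CPM at 24 months. Of these 5 genes 4 (Hbb-bs, Hbb-bt, Hba-a1 and Alas2) were higher at 24 against 2 months. Hba-a1 lost its call without 2-month replicate 1 (0.0509) or 2 (0.0673) and in limma voom (0.0593). Alas2 lost its call without 2-month replicate 2 (0.0713) or 24-month replicate 1 (0.062) and in limma voom (0.0835). For Hbb-bs and Hbb-bt the adjusted p reached at most 0.0356 and 0.0423 over the alternatives. The 5 genes summed to 190, 75.4 and 113 CPM in 24-month replicates 1, 2 and 3. The part of retained blood in the endothelial levels was not tested.

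Leaving out libraries that carried other tissue removed many of these calls. Over the ligands and the 6 lists, 12 genes were called at 12 against 2 months, 8 at 24 against 2 and 5 at 24 against 12. Without the 3 libraries with salivary gland transcripts, which leaves 2 per age, 0 of the 12, 2 of the 8 (Nrp2 and Vcam1) and 1 of the 5 (Apln) were called. All genes called fell as well, from 1185, 2597 and 656 to 127, 626 and 170 in the same order of comparisons. Whether calls were lost through the other tissue or through the smaller number of libraries was not tested. Without the 2 libraries with skeletal muscle transcripts, which leaves 1 library at 12 months assumed to vary like the others, 6 of the 12 (Ets1, Fli1, Klf2, Mef2c, S1pr1 and Vcam1), 8 of the 8 and 0 of the 5 were called. With library totals alone 8 of the 12, 7 of the 8 and 3 of the 5 were called, Vwf (0.0783) and Cd34 (0.0614) at 24 against 12 months being among those lost. In limma voom 7, 6 and 4 were called, Fli1 (0.0533), Jam2 (0.0542) and S1pr1 (0.0516) at 12 against 2 months and Cd34 (0.0506) at 24 against 2 being among those lost, and in DESeq2 all were called. The members stayed at 0 of 9 called in each comparison under these 5 alternatives.

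The genes whose pattern over the 9 libraries was most like the mean standardised level of the 8 blood vessel genes were Col23a1, Nub1 and Abi3bp, each with a Pearson correlation of 0.95, followed by Ctsa, Itih5 and S100a6 at 0.94. Among the 18 other surface and junction genes of endothelium, Cd34 was closest at 0.79, higher than 98.4% of tested genes, followed by Mmrn2 and Cldn5 at 0.71. The least alike of that list were Podxl at 0.36, Myct1 at 0.31 and Icam2 at -0.03. The other endothelial lists were not compared in this way. For Flt4 the most alike were Rpl39-ps and Gm45223 at 0.93, Snx17 at 0.91 and Cdc42ep2 at 0.90. These are descriptions over 9 libraries of shared scaling, with 24-month replicate 3 the highest for the blood vessel genes, and for Prox1 the counts are too sparse for such a measure.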

How the data were processed

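RNA was measured by sequencing in 9 lacrimal gland libraries, after extraction with an RNeasy Plus Micro kit, on a BGISEQ500RS, per the labels' protocols. The submitters' processing notes name cutadapt and FastQC, the aligner STAR, the counter HTSeq, DESeq2 and the build GRCm38, with no versions; annotation release and strand setting were not given in the sources used here. Whole-number counts of reads per gene, as the authors deposited them, were used for every test. They also deposited log2 values, which were checked to equal scaled counts (100% within 1e-06) and not used further. Of 54232 gene IDs 54165 had a symbol in GENCODE M21, and the 67 others held at most 0.00105% of a library.

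Tests used the quasi-likelihood F test of edgeR 4.0.16 under R 4.3.3 (TMM scaling with factors of 0.801 to 1.207, filterByExpr with a minimum count of 10, all 9 libraries in 1 model of age, Benjamini-Hochberg adjustment over 14958 genes, called under 0.05). The filter kept at least 99.93% of counts, genes had a common coefficient of variation of 21.2%, 6 degrees of freedom were left, and the depth of 40516863 to 42573877 counts leaves genes of a few counts untested. Intervals of log2 differences are 95% intervals from the same fit; count intervals are exact Poisson and shares have Wilson intervals. Levels are TMM-scaled CPM, divided by exon length where genes are compared, and correlations use log2 CPM with a prior count of 2. The procedure was tested on simulated data.

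The members and lists were chosen with earlier results of these data known. The text names all 10 members, from each list up to 4 tested genes with the smallest p over the 3 ages, and the defining genes of other cell types; some genes were named after their values were seen. Same-numbered libraries of different ages had correlations of their deviations from -0.16 to 0.06. These showed no pairing by number, but with 3 libraries per age they cannot exclude one. Alternatives were other scalings, filters and thresholds, DESeq2 1.42.0, limma 3.58.1 voom with sample weights, a replicate block, fewer libraries, and each library left out. Summaries were made in Python 3.11.15 (pandas 2.3.3, numpy 2.4.6, scipy 1.17.1) and figures in matplotlib 3.10.9.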

Additional observations from a re-analysis of the deposited data

How the results depend on the processing

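Members called stayed at 0 in every comparison under RLE scaling, library totals alone, a minimum count of 1, an adjusted p under 0.01, DESeq2, limma voom, only the libraries compared, and without the libraries with salivary gland or muscle transcripts. With the replicate number as a block, 0 members were called in each comparison; all genes called moved from 1185, 2597 and 656 to 700, 1883 and 406. Of the other endothelial genes and ligands, the block lost Nrp2 (0.0535), Apln (0.0638) and Unc5b (0.0905) at 12 against 2 months and Ackr1 (0.0811) at 24 against 2, and kept the other calls. With no filter, 1 member (Pecam1) was called at 12 against 2 months and 1 over the 3 ages, the cause not being tested. Leaving out 1 library gave 0 to 1 called members at 12 against 2 months, 0 to 0 in the other pairs and 0 to 2 over the 3 ages (Pecam1 and Emcn, without 12-month replicate 3).

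Of 540 member values under an alternative, 506 kept their direction with no call, 32 changed sign, all with no call, and 2 were called only there. The 506 include the values at an adjusted p under 0.01, which came from the main fit and could not change sign or gain a call. With library totals alone the signs turned at 12 against 2 months for Cdh5 (0.29), Kdr (0.20), Flt1 (0.18) and Tek (0.09), and for Flt4 at 24 against 2 (0.23), where the block gave 0.02. Without the muscle libraries they turned at 12 against 2 for Cdh5 (0.18), Kdr (0.21) and Tie1 (-0.10), and at 24 against 12 for Tie1 (0.12) and Plvap (-0.17). Without the salivary libraries they turned for Plvap at 12 against 2 (-0.02), Tie1 (-0.12) and Flt4 (0.42) at 24 against 2, and Flt4 at 24 against 12 (0.05). Leaving out 1 library gave ranges that crossed or reached 0, namely -0.16 to 0.08 for Cdh5 at 12 against 2, -0.31 to 0.07 for Kdr at 12 against 2, -0.31 to 0.09 for Flt1 at 12 against 2, -0.06 to 0.39 for Flt1 at 24 against 2, -0.07 to 0.17 for Tie1 at 24 against 2, -0.16 to 0.08 for Tie1 at 24 against 12, -0.00 to 0.26 for Plvap at 24 against 12, -0.02 to 0.18 for Emcn at 24 against 2, -0.22 to 0.59 for Flt4 at 12 against 2 and -0.59 to 0.22 for Flt4 at 24 against 2.

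The mean log2 excess of blood vessel over lymphatic genes at 2, 12 and 24 months was 4.65, 3.93 and 4.43; with summed CPM it was 6.48, 5.89 and 6.38, per length 5.26, 4.54 and 5.04, and with a prior count of 0.5 it was 5.70, 4.33 and 5.01. Leaving out 1 library gave 4.38 to 4.80, 3.90 to 3.99 and 4.24 to 4.59. With summed CPM the SDs were 1.24, 0.25 and 0.28, and the 12-month libraries overlapped those of both other ages. With a prior count of 0.5 they overlapped those of 24 months. Over all alternatives the genes called numbered 127 to 2025 at 12 against 2 months (main 1185), 626 to 3148 at 24 against 2 (main 2597) and 132 to 1486 at 24 against 12 (main 656), the fewest being without the salivary libraries for the first and second and without the muscle libraries for the third. At this depth Prox1 had too few counts to be tested.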
